A study of Mus musculus with 12 samples.

Results

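The thrombospondins are a family of secreted glycoproteins with 5 members in the mouse, encoded by Thbs1, Thbs2, Thbs3, Thbs4 and Comp, the last of which is also called thrombospondin 5. They were chosen by symbol from the deposited table of RNA levels, where they are 5 of 17536 genes. The study asks what the transcription factor Runx3 does in articular cartilage, and here RNA was sequenced from chondrocytes of the superficial zone (SFZ) and the deep zone (DZ). The 12 libraries fall into 4 groups of 3. R3-Cntl mice carried Runx3 fl/fl and no Cre, and R3-cKO mice carried Col2a1-Cre with Runx3 fl/fl. All were aged 5 days and labelled C57BL/6 (the study's methods name C57BL/6J for its cultured chondrocytes), so both genotypes share the floxed alleles and differ in the Cre transgene as well as in its effect on Runx3. Col2a1-Cre acts in cells of the Col2a1-expressing lineage, and cells outside that lineage keep the gene.

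The zones were separated by digestion, not by a sort. By the study's methods for these cells, ligaments and tendons were cut away first, a shorter digestion with trypsin and collagenase released the SFZ cells, and a longer collagenase digestion of what was left of the epiphyseal cartilage released the DZ cells. Zone and digestion therefore cannot be told apart in any comparison here. The methods add that dissociated cells were grown on coated dishes, as monolayers and with serum, and the labels do not say for how long before RNA was taken. A legend of the study gives 3 individual littermate mice of each genotype as the source of both zones, but not which SFZ and DZ libraries share a mouse. Levels are given as FPKM, a number of sequenced fragments divided by transcript length and by the size of the library, so that different genes can be set side by side. The unit was inferred from how the values behave, since no label names it. The number of reads behind a value is unknown, and no interval from counting is given.

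Thrombospondins bind cells, growth factors, proteases and other matrix proteins, and act as organisers of the matrix more than as structural fibres. Thbs1 and Thbs2 form trimers, share repeats that bind the receptor Cd36, and are known as inhibitors of vessel growth. Thbs1 can also activate latent TGF-beta. Thbs3, Thbs4 and Comp form pentamers and lack those repeats. Comp is a classical cartilage matrix protein that binds collagens II and IX and matrilins, while Thbs4 is best known from tendon and muscle, where it sits in the matrix beside collagen I fibres.

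Runx3 was checked first, since its level tests the genotype labels. In R3-Cntl SFZ its level was 10.7, 5.98 and 6.65 FPKM, and in R3-cKO SFZ it was 11.8, 9.07 and 3.42 FPKM. In R3-Cntl DZ it was 12.7, 12.7 and 7.66 FPKM, and in R3-cKO DZ it was 16.0, 12.7 and 8.14 FPKM. The genotypes overlapped in both zones, and Runx3 RNA was not lower in R3-cKO by a value summed over the whole gene, which does not show whether the floxed part is still in the transcript. The groups are therefore called libraries labelled R3-cKO, and every direction between genotypes below rests on that label. The study reports less Prg4 in SFZ cells and less Acan in DZ cells of R3-cKO mice by qRT-PCR, both recovered by Runx3 overexpression. It also lists Prg4 among the genes most lowered in SFZ in its own DESeq2 test of the RNA-seq. Here all 3 R3-cKO SFZ libraries lay below all 3 of R3-Cntl for Prg4, a separation found in either direction for 2.4% of genes tested. Prg4 differed by -1.45 in log2(FPKM + 1). For Acan the DZ means were 1129 against 1499 FPKM, a difference of -0.41. Neither was called by limma, with adjusted p of 0.9997 and 0.999, so these values run in the direction of the labels but do not test them. The Y-linked gene Ddx3y, looked at after its values were seen, lay between 4.96 and 21.1 FPKM in the 6 R3-Cntl libraries. It was 10.7 and 12.7 FPKM in replicate 1 labelled R3-cKO and at most 0.02 FPKM in replicates 2 and 3 of both zones. Genotype and the presence of Y-linked RNA are thus partly joined, and the part of sex in the genotype comparisons was not tested.

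The zone labels were checked with markers. Prg4, the lubricin gene of the superficial zone, was 22.2, 8.38 and 7.13 FPKM in R3-Cntl SFZ against 1.39, 1.22 and 1.47 FPKM in R3-Cntl DZ, with no overlap. In libraries labelled R3-cKO it was 6.95, 2.47 and 2.13 FPKM in SFZ against 5.72, 1.32 and 2.14 FPKM in DZ, and these overlapped. All 10 chondrocyte markers found in the table, led by Col2a1, were called higher in DZ over the 12 libraries by limma, a linear model fitted to all genes, at an adjusted p under 0.05. Snorc, the other marker of that list, is not in the table. Col2a1 was still between 3049 and 9229 FPKM in the SFZ libraries and between 11248 and 22791 FPKM in the DZ libraries. Of 10 deep zone and hypertrophic markers, Pth1r was called higher in DZ and Bglap and Runx2 higher in SFZ, beside 3.82% of all genes called higher in DZ and 16.8% higher in SFZ. Pth1r (1.10, adjusted p 0.00221) and Bglap (-2.26, adjusted p 0.00359) did not overlap between zones, in opposite directions. Col10a1 ranged from 3.67 to 254.7 FPKM in SFZ and from 59.2 to 793 FPKM in DZ. The DZ libraries thus carried more cartilage matrix RNA.

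The promoters of Thbs2 and Thbs4 are shown because these 2 genes turn out to move together between the zones, and that of Thbs3 because it does not follow them. RefSeq windows from 250 bases before to 50 bases after the start of the gene were matched by symbol for 3 of the 5 members, on mouse build GRCm38.p6. Thbs1 and Comp had no entry. The windows are chr17:14694213-14694512 on the minus strand for Thbs2, chr3:89214930-89215229 on the plus strand for Thbs3 and chr13:92794769-92795068 on the minus strand for Thbs4, each written 5′ to 3′ on the strand of its gene. Capitals mark matches to the motifs named after the sequences.
Thbs2: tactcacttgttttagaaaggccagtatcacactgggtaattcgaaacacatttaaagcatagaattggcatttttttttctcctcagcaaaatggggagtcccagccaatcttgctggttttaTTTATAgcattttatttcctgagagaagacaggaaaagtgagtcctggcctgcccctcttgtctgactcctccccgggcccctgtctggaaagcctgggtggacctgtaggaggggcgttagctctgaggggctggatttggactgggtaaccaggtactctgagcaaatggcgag
Thbs3: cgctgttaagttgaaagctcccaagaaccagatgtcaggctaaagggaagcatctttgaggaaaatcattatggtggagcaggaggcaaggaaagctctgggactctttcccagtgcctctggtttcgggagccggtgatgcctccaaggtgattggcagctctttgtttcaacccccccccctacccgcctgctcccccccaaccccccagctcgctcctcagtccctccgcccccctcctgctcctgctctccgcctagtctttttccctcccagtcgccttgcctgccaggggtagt
Thbs4: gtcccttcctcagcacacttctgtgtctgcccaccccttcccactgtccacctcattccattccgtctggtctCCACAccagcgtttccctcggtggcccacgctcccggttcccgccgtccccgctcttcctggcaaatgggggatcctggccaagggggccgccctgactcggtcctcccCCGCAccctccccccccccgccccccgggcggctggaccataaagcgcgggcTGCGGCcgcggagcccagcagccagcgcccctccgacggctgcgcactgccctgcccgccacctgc

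Both strands were searched for the Runx consensus TGTGGT or TGCGGT, for TATAAA, and for TGTGG or TGCGG, the first 5 letters of the Runx consensus, which every 6-letter match also contains. The Runx consensus had no match in any of the 3 windows, and 22.4% of all 32851 promoters in the table hold it. The study reports a wider form, which also admits TGTGGC and TGCGGC, from a motif analysis of its Runx3 binding peaks. After the consensus was seen to have no match, that form was added. It had 1 match, TGCGGC on the plus strand of the Thbs4 window at -16 from the start, and 45.2% of all promoters hold it. The 5-letter form had 3 matches in Thbs4, at -177, -68 and -16, the last inside the wider match, and none in Thbs2 or Thbs3, against 71.8% of all promoters. TATAAA had 1 match, on the minus strand of Thbs2 at -126 where it reads TTTATA, against 13.6% of all promoters. These are matches of letters in a short window and show nothing about binding. In base composition the windows of the pair that moves together lie apart. Thbs2 has 48.3% G and C with 4 CpG, Thbs3 59.0% with 8, and Thbs4 72% with 24, where the median promoter has 52.7% and 7.

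Thbs1 (gene ID 21825), the trimer that can activate latent TGF-beta, was the most abundant member in 9 of the 12 libraries. In R3-Cntl SFZ it was 534, 1207 and 1741 FPKM, and in R3-cKO SFZ it was 718, 1868 and 1247 FPKM. In R3-Cntl DZ it was 669, 1638 and 2180 FPKM, and in R3-cKO DZ it was 2518, 3460 and 2792 FPKM. Replicate 1 was the lowest in each of the 4 groups. The zones overlapped in R3-Cntl, while the 3 DZ libraries labelled R3-cKO lay above every other library. The means were 1161 ± 605 (SD, n = 3), 1278 ± 576, 1496 ± 766 and 2924 ± 484 FPKM in the same order of groups.

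Comp (gene ID 12845), the pentamer of the cartilage matrix, was next. In R3-Cntl SFZ it was 833, 298 and 463 FPKM, and in R3-cKO SFZ it was 858, 345 and 601 FPKM. In R3-Cntl DZ it was 1529, 988 and 1124 FPKM, and in R3-cKO DZ it was 1261, 599 and 1386 FPKM. All R3-Cntl DZ libraries lay above all R3-Cntl SFZ libraries, while with the R3-cKO label the zones overlapped through replicate 2 of DZ. Group means were 531 ± 274, 602 ± 256, 1214 ± 282 and 1082 ± 423 FPKM (SD, n = 3). Here replicate 1 was the highest library in 3 of the 4 groups, the reverse of its place for Thbs1.

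Thbs2 (gene ID 21826), the other trimer, followed the opposite zone pattern at a lower level. The SFZ libraries of R3-Cntl had 36.4, 117 and 56.1 FPKM, and those labelled R3-cKO had 42.0, 43.2 and 169 FPKM. The DZ libraries of R3-Cntl had 5.91, 10.6 and 22.1 FPKM, and those labelled R3-cKO had 14.7, 16.0 and 7.38 FPKM. The lowest SFZ library stood above the highest DZ library in both genotypes. Means were 69.8 ± 42.0 and 84.8 ± 73.1 FPKM in SFZ and 12.9 ± 8.32 and 12.7 ± 4.65 FPKM in DZ (SD, n = 3), R3-Cntl first.

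Thbs4 (gene ID 21828), the pentamer known from tendon and muscle, had the widest gap between zones of the 5. Its level was 50.8, 99.6 and 63.0 FPKM in R3-Cntl SFZ and 36.7, 45.1 and 108 FPKM in R3-cKO SFZ. In R3-Cntl DZ it was 0.25, 0.45 and 2.49 FPKM. In DZ labelled R3-cKO it was 0.01 and 1.04 FPKM in replicates 1 and 2, and replicate 3 is listed at 0. No DZ library came near an SFZ library. R3-Cntl means were 71.2 ± 25.4 FPKM in SFZ and 1.06 ± 1.24 FPKM in DZ (SD, n = 3), and the SFZ mean was 66.9-fold the DZ mean. That fold hangs on R3-Cntl DZ 3, since without it the DZ mean was 0.35 FPKM and the fold 203, and without any other library it was 48.4 to 76.5. No fold is given for the R3-cKO label, since a library there is listed at 0.

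Thbs3 (gene ID 21827), also a pentamer, had the smallest zone difference of the 5 over 12 libraries, though in R3-Cntl alone, and over the 11 libraries left without R3-Cntl SFZ 1, that of Thbs1 was smaller. It was 25.3, 12.3 and 10.1 FPKM in R3-Cntl SFZ, 16.1, 18.4 and 9.37 FPKM in R3-cKO SFZ, 31.1, 21.1 and 19.1 FPKM in R3-Cntl DZ and 19.6, 17.6 and 18.4 FPKM in R3-cKO DZ. The zones overlapped in both genotypes. The highest of the 12 libraries was 3.32-fold the lowest, against 28.6-fold for Thbs2, 6.48-fold for Thbs1 and 5.13-fold for Comp.

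**Figure D1:**
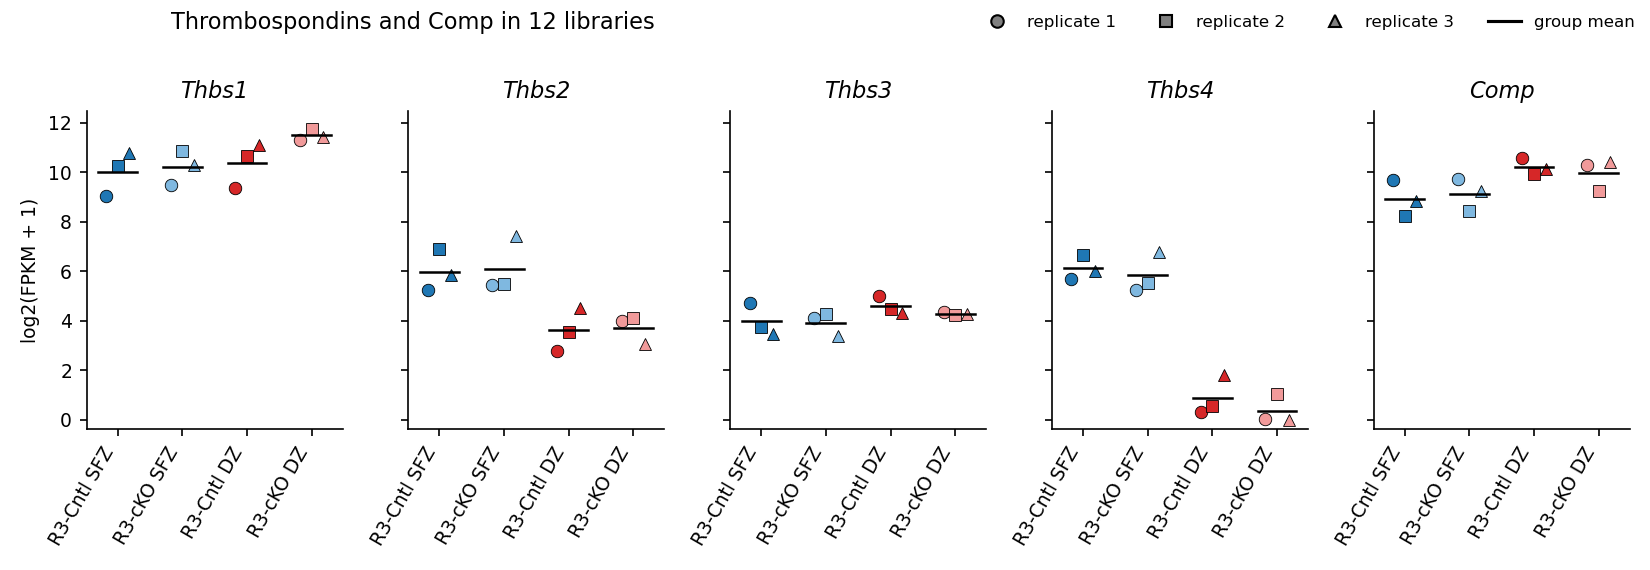
Level of each member in the 12 libraries as log2(FPKM + 1), with a point for each library, a shape for its replicate number and a line for the mean of 3. Thbs2 and Thbs4 stand higher in SFZ than in DZ in every library, Comp leans to DZ, and Thbs3 stays in a narrow band.

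Lower places changed hands between zones, while the same 2 members held the first 2 places in both, in changing order. Thbs1 and Comp held those places in all 12 libraries, and Comp stood above Thbs1 in 3 of them, replicate 1 of both SFZ groups and of R3-Cntl DZ. Over the 6 SFZ libraries the mean of Thbs1 was 1219 ± 532 FPKM and that of Comp 566 ± 240 FPKM, and over the 6 DZ libraries they were 2210 ± 969 and 1148 ± 330 FPKM (SD). This pair therefore did not keep its order beyond the spread of either. In SFZ, Thbs2 (77.3 ± 54.0 FPKM) and Thbs4 (67.2 ± 29.7 FPKM) exchanged places from library to library, and Thbs3 (15.3 ± 6.03 FPKM) was last in all 6. In DZ, Thbs4 was last in all 6, and Thbs3 (21.1 ± 5.04 FPKM) stood above Thbs2 (12.8 ± 6.03 FPKM) in all but replicate 3 of R3-Cntl. The last place thus passed from Thbs3 to Thbs4.

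Summed over the 5 members, the family made up 0.345 to 0.560% of the FPKM of an SFZ library and 0.526 to 1.05% of that of a DZ library. Thbs1 gave 36.1 to 80.5% of the family sum in SFZ and 29.9 to 84.5% in DZ, and Comp gave 14.9 to 56.3% and 14.6 to 68.4%. Neither range divides the zones. Thbs2 gave 1.86 to 7.93% in SFZ and 0.176 to 0.660% in DZ, and Thbs4 gave 1.94 to 5.74% in SFZ and at most 0.0744% in DZ, so the shares of these 2 did not overlap between zones. Among all genes of a library, Thbs1 ranked between place 3 and place 6 in DZ labelled R3-cKO and between place 11 and place 103 in R3-Cntl DZ.

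**Figure D2:**
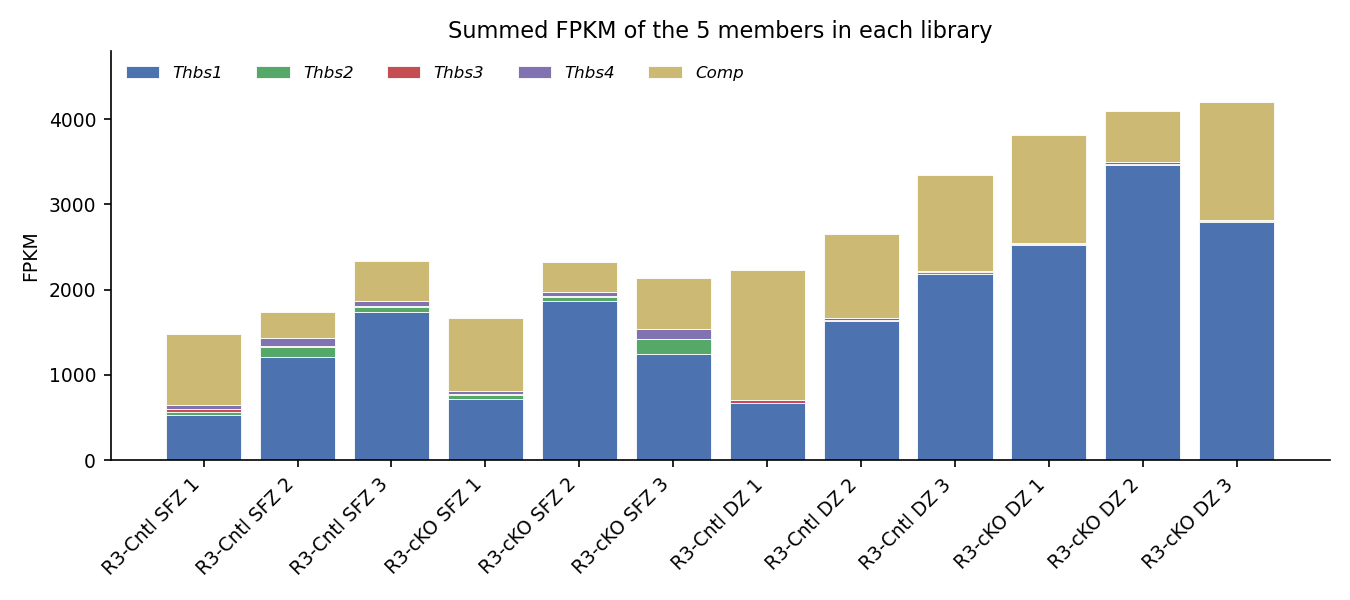
Summed FPKM of the 5 members in each library, stacked by member. The family sum runs from 1479 to 2333 FPKM in SFZ and from 2236 to 4204 FPKM in DZ, most of it Thbs1 and Comp, and the bands of Thbs2 and Thbs4 are visible only in SFZ.

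The zone difference was tested with limma on log2(FPKM + 1), as DZ minus SFZ, a scale on which differences of genes near or under 1 FPKM come out smaller than on FPKM itself. A gene was tested if 3 or more of the libraries compared reached 1 FPKM, and p-values were adjusted over every gene tested. All 5 members were tested, but Thbs4 passed the filter only through the SFZ libraries, so its test was bound to start from a gene high in SFZ. In R3-Cntl, 140 of 11336 genes were called at an adjusted p under 0.05, which is 1.24%, and 1 of the 5 members, Thbs4, was among them. Groups that did not overlap were counted as well. In R3-Cntl they were 3 of 5 members against 32.4% of all genes tested, with Thbs2 and Thbs4 higher in SFZ, as were 26.5% of genes, and Comp higher in DZ, as were 5.96% of genes.

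In the libraries labelled R3-cKO limma called 2 of 11336 genes, 0.0176%, at an adjusted p under 0.05, and 0 of the 5 members. At an unadjusted p under 0.05 the count was 1602 genes, 3 of them members. Here same-numbered libraries deviate together, and with the replicate number as a block (a paired fit) 352 genes, 3.11%, were called, with 1 member, Thbs4, among them at an adjusted p of 0.0293. Without overlap were 3 of 5 members against 21% of genes, Thbs2 and Thbs4 higher in SFZ (16.8% of genes) and Thbs1 higher in DZ (4.24% of genes). Over all 12 libraries, which share their samples with both comparisons and add no support to them, 2424 of 11765 genes, 20.6%, were called, and 3 of the 5 members. Comp was among the 3.82% called higher in DZ, and Thbs2 and Thbs4 were among the 16.8% called higher in SFZ. Without overlap over 6 against 6 libraries were 2 members, Thbs2 and Thbs4, where 11.3% of all genes did not overlap and 9.71% did so with SFZ higher.

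By member, Thbs4 differed by -5.36 (SE 0.35, adjusted p 7.8e-05, limma) over the 12 libraries, by -5.23 in R3-Cntl (adjusted p 0.0235) and by -5.50 with the R3-cKO label (adjusted p 0.0510 without the block). The call in R3-Cntl was lost when SFZ 2, SFZ 3, DZ 1 or DZ 2 of R3-Cntl was left out, with adjusted p from 0.0752 to 0.145, but the difference stayed between -5.29 and -4.95. Without SFZ 3 limma called 3 genes of the whole table and without the others 0, with 1502 to 3171 at an unadjusted p under 0.05. Over 12 libraries the call held without any single library. Thbs2 differed by -2.38 (SE 0.45, adjusted p 0.00680) over 12, and by -2.36 and -2.39 within the genotypes, where it missed the threshold with adjusted p of 0.0725 and 0.184. Both genes were lower in all 6 DZ libraries than in any SFZ library. In a two-sided exact permutation test over 6 against 6 libraries both had p 0.00216, the smallest that 924 arrangements can give. With 3 against 3 the smallest is 0.1, so no exact test within a genotype can pass.

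Comp differed by 1.07 (SE 0.32, adjusted p 0.0398, limma) over 12 libraries, with an exact p of 0.0130, and 5 of 6 DZ libraries stood above every SFZ library. That call is near its threshold. It was lost when any of 9 of the 12 libraries was left out, all but R3-Cntl SFZ 1, R3-cKO SFZ 1 and R3-cKO DZ 2, with adjusted p then from 0.0552 to 0.0998 and a difference between 0.90 and 1.14. Within R3-Cntl it was 1.29 (adjusted p 0.106) and with the R3-cKO label 0.85 (adjusted p 0.457), which ran from 0.50 to 1.23 when a library was left out. Without R3-Cntl SFZ 1 the R3-Cntl difference was 1.68 at an adjusted p of 0.0395.

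Thbs1 and Thbs3 missed the threshold over 12 libraries when unpaired, and the values do not settle whether they pass. Thbs1 differed by 0.82 (95% interval from -0.00 to 1.65, adjusted p 0.141, limma, exact p 0.102). In R3-Cntl its difference was 0.36, which turned to -0.12 without R3-Cntl SFZ 1, and with the R3-cKO label it was 1.29 (adjusted p 0.218). Leaving out R3-Cntl DZ 1 brought the exact p over the rest to 0.0130. Thbs3 differed by 0.49 (95% interval from -0.02 to 1.01, adjusted p 0.153, limma, exact p 0.0758), and without R3-Cntl SFZ 1, its highest SFZ library, by 0.68 at an adjusted p of 0.0316. The upper bounds allow a difference larger than that of Comp for Thbs1 and close to it for Thbs3. Fitted with same-numbered SFZ and DZ libraries of a genotype as pairs, 3949 genes, 33.6%, and all 5 members were called over 12 libraries, with adjusted p of 0.00642 for Thbs1 and 0.0352 for Thbs3. Thbs1 was higher in DZ in each of the 6 same-numbered pairs. In R3-Cntl alone the paired fit gave 831 genes, 7.33%, and 3 members, with Thbs2 (adjusted p 0.0423) and Comp (adjusted p 0.0369) beside Thbs4. The numbers are not known to mark the same mouse, and those of R3-Cntl did not meet the rule for pairing.

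Scaling moves the whole distribution here. The median difference of all genes over 12 libraries was -0.14 as deposited, 0.03 after quantile normalization and 0.00 with median-of-ratios size factors. Calls higher and lower in DZ went from 450 and 1974 to 1098 and 828 and to 935 and 974. Relative to the median of all genes, Thbs4 differed by -5.22, -5.28 and -5.26 under the 3 scalings, Thbs2 by -2.24, -2.28 and -2.23, Comp by 1.21, 1.13 and 1.23, Thbs1 by 0.97, 0.82 and 0.99, and Thbs3 by 0.63, 0.61 and 0.65. Each member kept its direction.

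**Figure D3:**
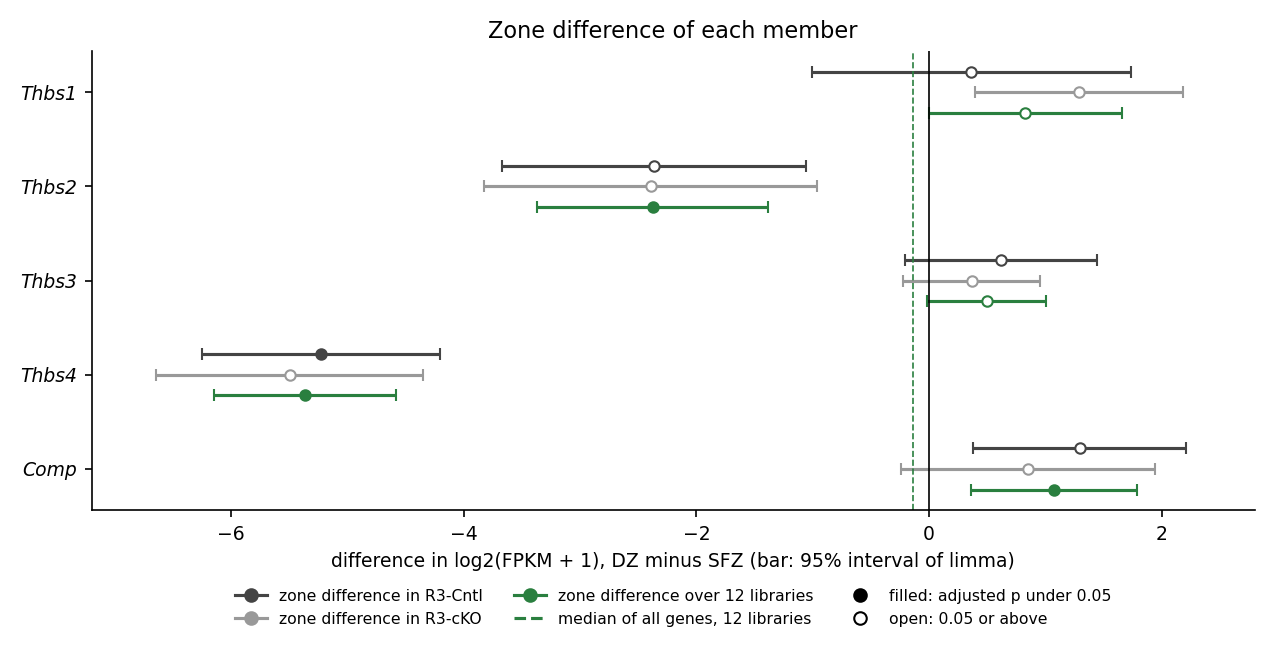
Zone difference of each member in log2(FPKM + 1), DZ minus SFZ, in R3-Cntl, in libraries labelled R3-cKO and over 12 libraries, with 95% intervals from limma and filled points for an adjusted p under 0.05. Thbs4 and Thbs2 lie far to the left of the median of all genes at -0.14, and Comp, Thbs1 and Thbs3 lie to its right.

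Whether the paralogs differ from each other in zone pattern was tested with ratios inside a library. Scaling of a whole library does not enter them, apart from the pseudocount of 1 FPKM. Ratios with Thbs4 still hang on the unknown depth in DZ, where Thbs4 was at most 2.49 FPKM. The log2 ratio of each of the 10 pairs was compared between 6 SFZ and 6 DZ libraries by the exact permutation test, two-sided and without adjustment over the 10. In 7 pairs the zones did not overlap and p was 0.00216, the smallest possible. These are all pairs of Thbs2 or Thbs4 with Thbs1, Thbs3 or Comp, and the pair of Thbs2 with Thbs4. Alone, Thbs2 and Thbs4 already separated the zones without overlap, so their ratios to Thbs1, Thbs3 and Comp largely restate that. The share of all gene pairs that separate the zones was not counted, so the count of pairs is a description only. The ratio of Thbs4 to Comp shifted most, from a mean of -3.05 in SFZ to -9.49 in DZ, a difference of -6.43, and that of Thbs2 to Comp shifted by -3.45. Thbs1 and Thbs2, the 2 trimers, parted by 3.20, and Thbs3 and Thbs4, both pentamers, by 5.86. Under other settings, pseudocounts among them, the shift of Thbs3 to Thbs4 ran from 3.97 to 7.70. That of Thbs4 to Comp ran from -8.25 to -4.64, so only the direction of these 2 is read. The zone pattern thus cuts across the division into trimers and pentamers.

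Thbs2 and Thbs4 share a direction but not a size. Their log2 ratio was -0.47, 0.23 and -0.16 in R3-Cntl SFZ and 0.19, -0.06 and 0.64 in R3-cKO SFZ, close to equal levels. In the 6 DZ libraries it lay between 2.47 and 3.95. Thbs4 was thus lower in DZ by 2.98 more than Thbs2 on this scale, and the pseudocount sets much of that figure. It was 4.71 with a pseudocount of 0.1 and 1.52 with 5, and leaving out a library moved it far less, so only its direction is read here. The other 3 pairs overlapped. The ratio of Thbs1 to Thbs3 shifted by 0.33 (exact p 0.623) and that of Thbs1 to Comp by -0.25 (exact p 0.736). By genotype these shifts were -0.26 and -0.93 in R3-Cntl against 0.92 and 0.44 with the R3-cKO label. Whether the genotypes differ in these ratios was not tested. The ratio of Thbs3 to Comp shifted by -0.58 (exact p 0.102). The shift of Thbs1 to Thbs3 became -0.034 without R3-Cntl SFZ 1, and that of Thbs1 to Comp became 0.023 without R3-cKO SFZ 2 and 0.16 without R3-Cntl DZ 1. For Thbs3 to Comp the exact p was 0.0433 without R3-cKO SFZ 3, and over the 6 same-numbered pairs it was 0.0313, so pairing decides whether that shift passes.

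**Figure D4:**
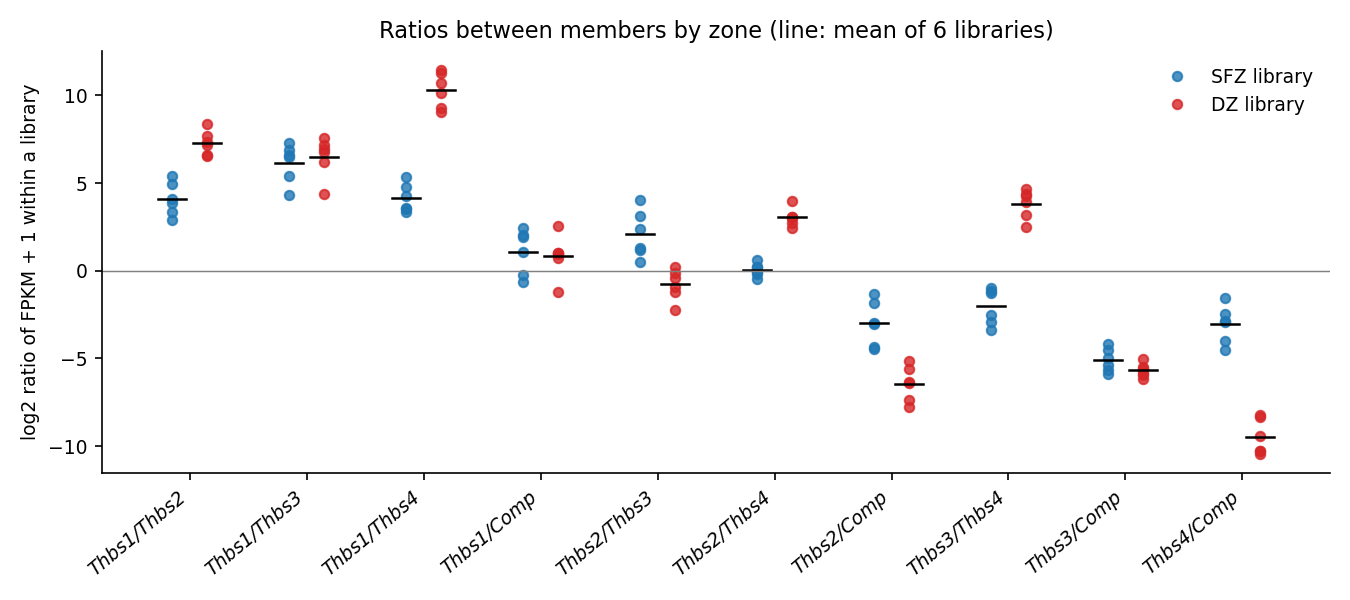
Log2 ratio of FPKM + 1 between each pair of members within a library, 6 SFZ and 6 DZ libraries, with lines for the means. The 7 pairs that join Thbs2 or Thbs4 to another member separate the zones without overlap, and the pairs among Thbs1, Thbs3 and Comp do not.

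The genotypes were compared within each zone, the comparison the study was designed for. In SFZ limma called 0 of 11537 genes, 0%, with 34 genes, 0.295%, at an unadjusted p under 0.05 and none of the 5 members among them. No member was without overlap, against 2.4% of genes. In DZ limma called 0 of 11091 genes, 0%, with 404 genes, 3.64%, at an unadjusted p under 0.05, among them 1 member, Thbs1. In a fit paired by replicate number, where same-numbered libraries deviate together, 0 were called and 1830 had an unadjusted p under 0.05. Thbs4 did not pass the filter in DZ, so 4 members were tested. Of these 1, Thbs1, did not overlap, against 8.03% of genes in either direction and 5.26% with the R3-cKO label higher.

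For Thbs1 in DZ the difference between the R3-cKO label and R3-Cntl was 1.12 (95% interval from 0.066 to 2.16), with an adjusted p of 0.999 in limma and 0.231 in the paired fit. It ran from 0.62 to 1.47 when a library was left out, and all 3 labelled libraries stood above all 3 of R3-Cntl. The exact p was 0.1, the smallest that 3 against 3 can give. In SFZ its difference was 0.19, and it took the other sign without R3-Cntl SFZ 1 or R3-cKO SFZ 2. Whether the zone difference depends on genotype was tested as an interaction. It was called for 0 of 11765 genes in limma, 0%. At an unadjusted p under 0.05 were 99 genes, 0.841%, with none of the 5 members among them. With the replicate block 0 were called and 949 had an unadjusted p under 0.05. In every fit made of the interaction, the adjusted p of Thbs1 was at least 0.583. The interaction was 0.92 (95% interval from -0.74 to 2.58, adjusted p 0.999) for Thbs1 and ran from 0.42 to 1.40 when a library was left out, so the separation seen with the R3-cKO label alone is not shown to differ from R3-Cntl.

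Several marker lists move with the zone difference of Thbs2 and Thbs4. In bulk RNA, fewer cells of a type and less RNA per cell cannot be told apart. Of 10 tendon and ligament markers, 7 were called higher in SFZ and 0 higher in DZ, beside 16.8% and 3.82% of all genes. Among the 7 called, 2, Tnmd and Kera, passed the filter only through SFZ libraries, so for them a call higher in DZ was hardly possible. The median difference of the list was -1.56, where the median of all genes was -0.14. Col1a1 was the most abundant over 12 libraries and in SFZ, while in DZ Fmod was, at a mean of 661 against 350 FPKM. The summed level was 4583, 7817 and 4857 FPKM in R3-Cntl SFZ and 4919, 4246 and 11082 FPKM in R3-cKO SFZ. The DZ sums were 709, 1070 and 2896 FPKM for R3-Cntl, then 1060, 1009 and 1992 FPKM with the R3-cKO label. Tnmd, a defining marker of tendon cells, was 14.1 to 85.6 FPKM in SFZ and at most 1.14 FPKM in DZ, where 2 libraries list it at 0. Scx was 10.4 to 23.0 FPKM in SFZ and 4.27 to 16.1 FPKM in DZ. Col1a1 and Col1a2 are also on the list of Comp partners, and Egr1 on that of serum response genes.

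The 2 SFZ libraries with the highest tendon sums, R3-cKO SFZ 3 and R3-Cntl SFZ 2, were also the highest for Thbs2 and for Thbs4 and the lowest for the summed chondrocyte markers, at 5999 and 5273 FPKM. The same 2 libraries were the highest in SFZ for the summed superficial zone markers, at 1344 and 747 FPKM against 225 to 358 FPKM in the other SFZ libraries. They were also the highest for fibroblast markers, at 1965 and 1366 FPKM against 559 to 945 FPKM, so this standing apart is not particular to the tendon list. The other SFZ libraries had chondrocyte sums of 7962 to 15556 FPKM and the DZ libraries 16363 to 36218 FPKM. Ligaments and tendons had been cut away before the digestion. The part that the cells of any of these lists have in the levels of Thbs2 and Thbs4 was not tested.

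**Figure D5:**
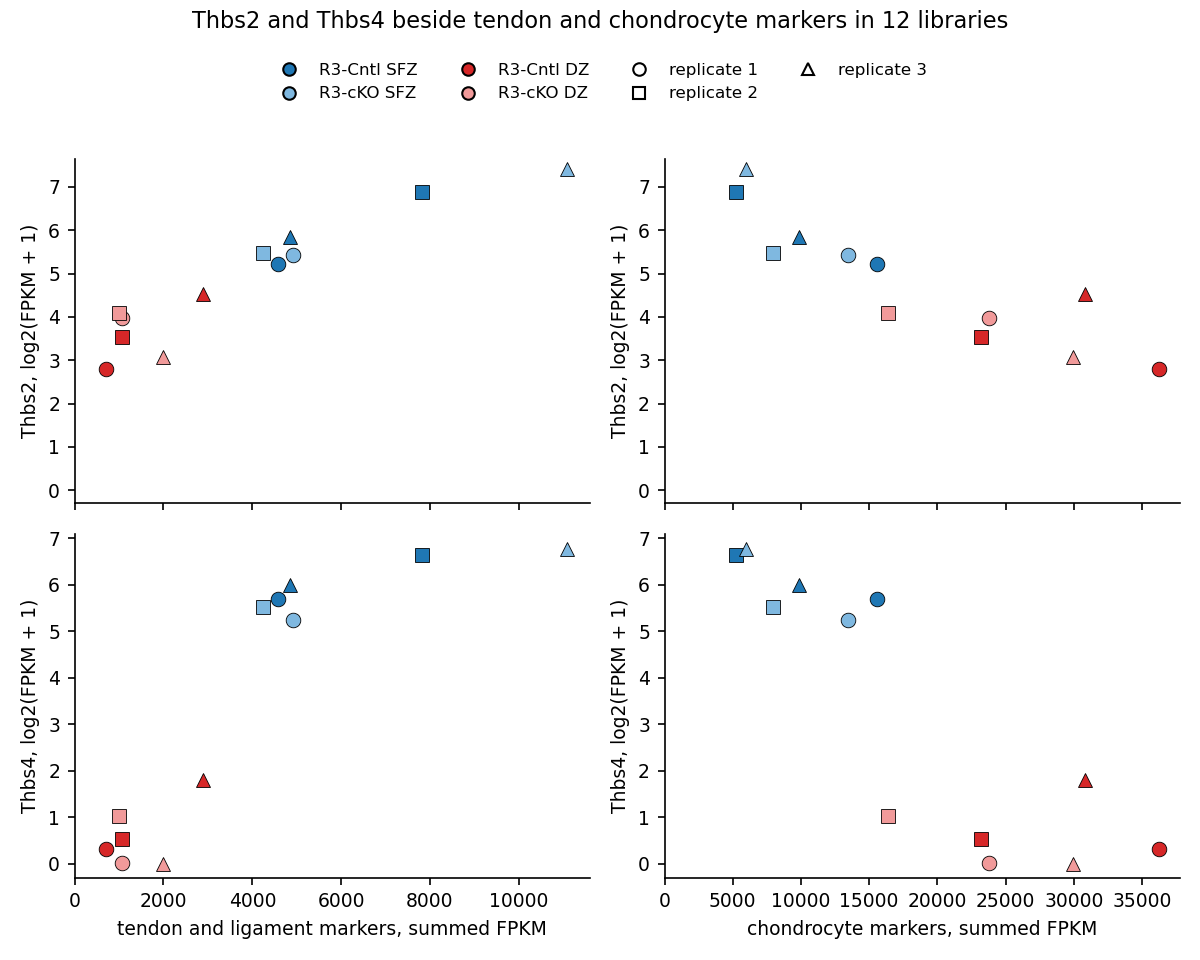
Thbs2 (top) and Thbs4 (bottom) in log2(FPKM + 1) against the summed FPKM of tendon and ligament markers (left) and chondrocyte markers (right), with a point for each of 12 libraries. R3-cKO SFZ 3 and R3-Cntl SFZ 2 lie highest on both genes and farthest to the right for tendon and to the left for chondrocyte markers.

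Other lists gave these counts over 12 libraries, beside 16.8% of all genes called higher in SFZ and 3.82% higher in DZ. Of 7 fibroblast markers tested of 8, 4 were called higher in SFZ and 0 in DZ (median -2.34). Lum (0.055) and Dcn (1.19, adjusted p 0.0641) did not follow them. Col3a1 was the most abundant over 12 libraries and in SFZ, while in DZ Dcn was, at a mean of 352 against 161 FPKM in SFZ. The summed level ran from 559 to 1965 FPKM in SFZ and from 367 to 1106 FPKM in DZ. All 8 macrophage markers were tested, and 6 were called higher in SFZ (median -1.50), but 7 of the 8 passed the filter only through SFZ libraries, 5 of them among those called, so for these a call the other way was hardly possible. This limit also holds for Tnmd and Kera of the tendon list, for Dpt and Cd34 of the fibroblast list, for Creb5 of the superficial list and for Col14a1 of the Comp partners. The summed macrophage markers reached only 4.49 to 50.2 FPKM in SFZ and 1.24 to 8.22 FPKM in DZ, led by Cd68. Of the superficial zone markers 5 of 9 tested were called higher in SFZ and 0 in DZ (median -1.32), led by Abi3bp. Gdf5 went the other way, by 0.89 (adjusted p 0.0764, limma), with means of 3.65 FPKM in SFZ and 7.22 FPKM in DZ. The part of these cells in the zone pattern was not tested.

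Platelets store Thbs1 and endothelial cells express it, so markers of both were counted. None of 8 endothelial markers passed the filter, and they summed to at most 6.15 FPKM in SFZ and 0.45 FPKM in DZ. Of 7 platelet and megakaryocyte markers 1, Gp1bb, passed, and the list summed to 2.90 to 8.03 FPKM. Of 10 skeletal muscle markers 4 were tested and of 7 keratinocyte markers 2, and in limma 0 of them had an adjusted or an unadjusted p under 0.05. Acta1 and Trp63 were the most abundant of these lists over 12 libraries. In DZ Tnnt3 stood above Acta1, at a mean of 5.8 against 4.3 FPKM. With the R3-cKO label it did so in SFZ (3.47 against 3.01 FPKM) but not in DZ (4.58 against 6.80 FPKM). R3-Cntl SFZ 2 stood apart in the summed muscle markers, at 133 FPKM against 6.65 to 22.4 FPKM in the other 11 libraries, with Mylpf at 40.2 and Acta1 at 38.0 FPKM. That library is the second highest for Thbs4, and without it Thbs4 was still called higher in SFZ over the other 11, and within R3-Cntl it differed by -4.96 against -5.23 with it, in a fit where limma called 0 of 11085 genes (1502 at an unadjusted p under 0.05). The part of muscle cells in its level was not tested.

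Thbs1 is also a gene that serum and mechanical stress can induce, and a list of 10 such genes was counted. Of 8 tested, 1 was called higher in DZ over 12 libraries, Ctgf, and 0 higher in SFZ (median -0.39). The median was -0.72 in R3-Cntl and 0.18 with the R3-cKO label, with 0 called in either. For the interaction of zone and genotype the median was 0.80, with 0 called. Ctgf was 235 to 639 FPKM in SFZ and 752 to 1150 FPKM in DZ without overlap, and it was the most abundant of the list. The summed level was 425 to 1194 FPKM in SFZ and 1026 to 1754 FPKM in DZ. The parts of digestion and of culture with serum in the level of Thbs1 were not tested.

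Of 16 thrombospondin receptors 15 were tested, with 1 called higher in DZ, 4 higher in SFZ, and a median of -0.20. Among all genes 3.82% were called higher in DZ and 16.8% higher in SFZ, so these counts, and those of proteases and latent TGF-beta given further on, are not read as results about the lists. Cd36, which binds the repeats of Thbs1 and Thbs2, had a mean of 4.11 FPKM in SFZ and 0.607 FPKM in DZ and differed by -1.42 (adjusted p 0.0479, limma), having passed the filter only through SFZ libraries. Cd47, which binds the tail of thrombospondins, differed by -0.67 (adjusted p 0.00432), the integrin subunit Itgb1 by -0.51 (adjusted p 0.0430) and the proteoglycan Sdc1 by -0.60 (adjusted p 0.0205), while Sdc4 was higher in DZ by 0.54 (adjusted p 0.0161). Calr was the most abundant, at 746 FPKM in SFZ and 662 FPKM in DZ.

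The matrix partners of Comp were divided between the zones. All 14 were tested, and 6 were called higher in DZ and 5 higher in SFZ, beside 3.82% and 16.8% of all genes. The median was 0.97. Those higher in DZ like Comp were Col2a1 (1.57), Col9a1 (1.66), Acan (2.11), Matn1 (2.22), Matn3 (2.12) and Fn1 (0.65). Those higher in SFZ were the collagens of fibrous tissue Col1a1 (-3.73), Col1a2 (-3.20), Col12a1 (-1.72) and Col14a1 (-3.45), and the growth factor precursor Grn (-0.84). Col9a2 and Col9a3, which join Col9a1 in collagen IX, differed by 1.66 and 1.28 and missed the threshold with adjusted p of 0.0668 and 0.0749 in limma.

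Of 7 proteases that cut Comp or thrombospondins, or are held by them, 2 were called higher in SFZ, Adamts1 (-0.70) and Adamts12 (-0.81), and 0 in DZ. Mmp13 was the most abundant and differed by -0.00. Of 7 genes of latent TGF-beta, whose protein Thbs1 can activate, 2 were called higher in SFZ, Tgfb3 (-1.52) and Ltbp4 (-1.41), and 0 in DZ, with Ltbp3 the most abundant. The lists of proteases and of latent TGF-beta had medians of -0.64 each. Of the 7 proteases 4 passed the filter only through SFZ libraries, so for these a call higher in DZ was hardly possible. The protease median is the value of 1 of these 4. Between genotypes limma called no gene of these lists in SFZ or DZ, as it called none at all. At an unadjusted p under 0.05, the counts for proteases were 1 in SFZ and 0 in DZ, and those for latent TGF-beta 0 in both zones. For receptors they were 0 in SFZ and 2 in DZ, and for Comp partners 0 in both.

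The members lie on 5 chromosomes, and neighbours were taken from the GENCODE vM1 annotation of mm9, the build of the authors' alignment. Its coordinates are not interchangeable with those of the promoter windows above. Thbs4 (chr13:93521545-93564773, minus strand) lies between Serinc5, 39645 bases away, and Mtx3. Serinc5 was called higher in DZ by 1.28 (adjusted p 0.00362, limma), against the direction of Thbs4, and Mtx3 differed by -0.14 and was not called. Thbs2 (chr17:14802507-14831269, minus strand) lies between Smoc2, which differed by 0.61 (adjusted p 0.384), and Gm3222, which is not in the table. No measured neighbour of Thbs2 or Thbs4 was called lower in DZ with them.

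Comp (chr8:72897447-72905964, plus strand) lies 289 bases from Crtc1, which differed by -0.39 (adjusted p 0.0565, limma), and Upf1 on the other side was called lower in DZ by a difference of -0.22 (adjusted p 0.0453). Thbs1 (chr2:117937612-117952869, plus strand) lies between Rasgrp1 and Fsip1, neither above 0.54 FPKM in any library. Thbs3 (chr3:89019102-89030759, plus strand) lies beside Muc1, which was at most 1.19 FPKM in any library, and the gene Mtx1 on the opposite strand overlaps it. Mtx1 was 16.0 to 26.0 FPKM over the 12 libraries and differed by 0.11 between zones. Where transcripts of both genes overlap, their reads can be told apart only by strand, and the strand of counting is not given in the sources used here.

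The members were also compared by how they vary from library to library, as Pearson correlations of log2(FPKM + 1) given without a p. Because the 12 libraries fall into 2 zones, the value within the 6 libraries of each zone is given beside that over 12. Thbs2 and Thbs4 correlated at 0.93 over 12 libraries, 0.94 within SFZ and 0.72 within DZ, but R3-cKO SFZ 3 and R3-Cntl SFZ 2 carry much of the SFZ value, which was 0.57 over the other 4. Thbs1 and Comp correlated at -0.04 over 12 but at -0.78 within SFZ and -0.57 within DZ, and Thbs1 and Thbs3 at -0.24 over 12, -0.59 within SFZ and -0.98 within DZ. With 6 libraries in a zone these values describe the libraries only, and R3-cKO SFZ 2 was high in both Thbs1 and Thbs3.

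For each member the 5 genes most like it over 12 libraries were taken, out of those whose mean reached 1 FPKM. Those of Thbs4 were Cdh13 (0.98), Postn (0.98), Tnmd (0.98), Olfml3 (0.98) and Meox2 (0.98), with correlations of 0.58 to 0.90 within SFZ and 0.56 to 0.92 within DZ. Those of Thbs2 were Mmd (0.98), Vcam1 (0.97), Tbc1d2b (0.97), Iqgap2 (0.97) and Dsel (0.97). Those of Thbs2 stayed at 0.94 to 0.98 within SFZ and at 0.75 to 0.96 within DZ. Postn, for example, was 57.3 to 333 FPKM in SFZ and 0.63 to 6.69 FPKM in DZ.

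The genes most like Comp were Pgap3 (0.98), Ehhadh (0.97), Rfesd (0.97), Cpne8 (0.96) and Cnmd (0.96), the last a chondrocyte marker on the list above, and all stayed at 0.86 or more within each zone. Most like Thbs1 were Angptl7 (0.95), Pak1 (0.94), Tnfrsf23 (0.92), Bcar3 (0.92) and Tbx15 (0.92). Angptl7 had means of 8.41, 5.93, 5.90 and 25.7 FPKM in R3-Cntl SFZ, R3-cKO SFZ, R3-Cntl DZ and R3-cKO DZ, so it too was highest in DZ with the R3-cKO label. Most like Thbs3 were Rfxap (0.96), the gene with ID 18951 whose symbol a spreadsheet has turned into a date (0.95), Rbm4 (0.95), Sox8 (0.95) and Gfpt2 (0.93). The lists of different members had no gene in common.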

How the data were processed

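Chondrocyte RNA was measured in 12 libraries by 100-bp paired-end sequencing, mapped to mm9, and the submitters' notes name Bowtie 0.12.2. The authors deposited 1 FPKM per gene and library, scaled by TMM, and this unit was inferred from the values. Depth was not derived, since the values carry 2 decimals and no counts. Values were taken as log2(FPKM + 1) and fitted with limma 3.58.1 (R 4.3.3) with a mean-variance trend, with Benjamini-Hochberg adjustment over every gene that reached 1 FPKM in 3 or more libraries compared. Exact tests went through every arrangement of the libraries in Python 3.11.15 with NumPy 2.4.6.

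Members and lists were chosen with earlier results of these data known. Named genes are the members, Runx3, their nearest genes, list genes past the threshold in a zone comparison or most abundant, and 5 most like genes per member. The table has no coordinates, so GENCODE vM1 gave them. Some genes the rule names are not reported here. Outside the rule, Col9a2, Col9a3, Col10a1, Dcn, Ddx3y, Egr1, Fmod, Gdf5, Lum, Mylpf and Tnnt3 were chosen after their values were seen. Of the promoter motifs, the Runx consensus, its first 5 letters and TATAAA were counted first, and the wider Runx form was added after the consensus was seen to have no match.

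The libraries of a number are paired where every same-numbered correlation of deviations from group means is over 0.1. This held for zones in libraries labelled R3-cKO (0.42, 0.78 and 0.65) and for genotypes in DZ (0.65, 0.78 and 0.69), and the legend speaks of littermates. The ChIP-seq and Runx2 data of the series were not used.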

Additional observations from a re-analysis of the deposited data

How the results depend on the processing

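In all, 884 values were recomputed under other settings. These were each library left out, a single model of all 12 libraries, the replicate block, size factors by median of ratios and quantile normalization. The others were a pseudocount of 0.1 or 5, no filter, and a filter at a mean of 10 FPKM. Of the 884 values, 784 were kept. A difference was kept if its direction and its side of the threshold held. A count of calls was kept if it equalled the main count or lay within a fixed ratio of it. Thbs2 and Thbs4 kept their direction and their call over 12 libraries under each setting, with differences from -2.61 to -2.05 and from -7.18 to -3.58.

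In R3-Cntl the count of members called went from 1 to 0 with no filter and to 0 after quantile normalization. In those fits limma called 0 of 17536 and 1 of 11336 genes, and Thbs4 still differed by -5.23 and -5.07. With the replicate block the count of members went to 3, and it ranged from 0 to 2 when a library was left out. With the R3-cKO label it went from 0 to 1 with the replicate block and to 1 in the single model, and from 0 to 1 without a library. Over 12 libraries it went from 3 to 5 with the replicate block, where Thbs1 (0.82, adjusted p 0.00642, limma) and Thbs3 (0.49, adjusted p 0.0352) passed. With no filter Comp had 1.07 at an adjusted p of 0.0630. In that fit more genes were tested, and its unadjusted p in limma was 0.0103 against 0.00718. Leaving out a library gave 0.90 to 1.27 for Comp and 0.36 to 0.68 for Thbs3.

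Genes called numbered 0 to 831 in R3-Cntl, 0 to 352 with the R3-cKO label and 1008 to 3949 over 12 libraries. With no filter 1 gene was called between genotypes in DZ, and 0 under each other setting.

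Signs turned only in values that passed no test. Without a library, the R3-Cntl zone difference of Thbs1 ran from -0.12 to 0.86. The SFZ genotype difference ran from -0.29 to 0.56 for Thbs1, from -0.53 to 0.57 for Thbs2, from -0.31 to 0.31 for Thbs3, from -0.73 to 0.031 for Thbs4 and from -0.14 to 0.60 for Comp. In DZ it ran from -0.32 to 0.55 for Thbs2, which was -0.0051 after quantile normalization, and from -0.46 to 0.15 for Comp. The interaction ran from -0.48 to 0.63 for Thbs2 and from -0.61 to 0.20 for Thbs4, which was 0.083 with a pseudocount of 5. Ratio shifts ran from -0.034 to 0.75 for Thbs1 to Thbs3 and from -0.59 to 0.16 for Thbs1 to Comp. The cause was not tested.

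Same-numbered correlations were 0.58, 0.11 and -0.15 between zones in R3-Cntl and 0.79, -0.09 and -0.42 between genotypes in SFZ, so those numbers did not meet the rule for pairing, and not every library correlated best with its own. This does not show that they come from different mice. The replicate block changed no other call of a member in the paired comparisons.

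Groups of 3 libraries, an unknown depth, digestion that goes with zone, and Runx3 RNA that is not lower with the R3-cKO label limit these results. A missed threshold does not show that levels are equal.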
